A study of Mus musculus with 2 samples.

Results

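Lyz2, Lyz1, Chil3, Ear1, Ear2 and Ear10 encode secreted proteins of macrophages and granulocytes. Their transcripts were examined in alveolar macrophages, which live in the air spaces of the lung. The 6 genes were taken by name. A probe set of its own, naming no other gene, was annotated for 4 of them (Lyz2, Lyz1, Chil3 and Ear10), out of 22180 genes so named on the array. No feature named Ear1 or Ear2, alone or with other genes, so these were not analysed here. The cells came from mouse lungs by flow sorting, the mice being 8 to 10 weeks old, and 2 Affymetrix arrays were made, 1 from Lysm-Cre Ssu72fl/fl mice and 1 from Lysm-Cre mice. Ssu72 encodes an enzyme that removes phosphate from the tail of the largest RNA polymerase II subunit, and fl/fl marks alleles flanked by recombination sites. Both groups carry Cre recombinase at the Lyz2 locus, which is active in myeloid cells; the insertion disrupts the Lyz2 allele that holds it. The sources used here do not give how many copies of Lysm-Cre the animals carried or how many animals an array represents. Each genotype had a single array, so differences have no replicate check, no test was possible and no error between animals can be stated.

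Lysozymes cut the peptidoglycan of bacterial cell walls. Mice have a tandem pair of lysozyme genes, of which Lyz2 (lysozyme M) is known from macrophages and other myeloid cells and Lyz1 (lysozyme P) from Paneth cells of the gut; both transcripts are also known from alveolar type 2 cells. Chil3 (Ym1) encodes a chitinase-like lectin without chitinase activity that is abundant in alveolar macrophages and is induced by interleukin 4 and interleukin 13 in other macrophages. The Ear genes encode ribonucleases of the RNase A superfamily that were named after eosinophil granules.

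These genes are members of clusters of close copies, and the sequences before their start sites show how close. The 250 bases upstream of the RefSeq start (GRCm38.p6) are given 5′ to 3′ for Lyz2 and Lyz1, for Chil3 and its copy Chil4, and for Ear2, Ear10 and Rnase2b, the gene formerly called Ear5. They are shown because Lyz2 and Lyz1 were both lower on the Lysm-Cre Ssu72fl/fl array, as were most features at their levels. A further reason was that Chil3 and Chil4, and Rnase2b and Ear10, lay on opposite sides of the detection floor with closely similar stretches. Whether the stretches bear on these signals was not tested. Capitals mark matches, on either strand, to AGGAAGT, a core bound by ETS factors such as PU.1, and to TTGCNNAA, a form of the C/EBP motif; both were chosen after the sequences had been seen.
Lyz2: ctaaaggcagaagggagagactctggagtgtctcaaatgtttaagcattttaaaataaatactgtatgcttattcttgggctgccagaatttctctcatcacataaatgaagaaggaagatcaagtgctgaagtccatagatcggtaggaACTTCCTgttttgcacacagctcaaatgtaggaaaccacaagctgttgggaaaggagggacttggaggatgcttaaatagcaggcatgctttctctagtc
Lyz1: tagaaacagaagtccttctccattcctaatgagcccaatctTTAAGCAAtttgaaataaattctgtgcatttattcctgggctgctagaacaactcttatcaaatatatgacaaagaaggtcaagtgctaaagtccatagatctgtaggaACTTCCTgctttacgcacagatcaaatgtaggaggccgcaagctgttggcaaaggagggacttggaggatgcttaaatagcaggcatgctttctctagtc
Chil3: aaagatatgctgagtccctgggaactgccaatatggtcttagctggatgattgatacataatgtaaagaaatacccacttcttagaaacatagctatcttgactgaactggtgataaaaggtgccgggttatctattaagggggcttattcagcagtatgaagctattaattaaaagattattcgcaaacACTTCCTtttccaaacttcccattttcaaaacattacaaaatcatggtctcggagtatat
Chil4: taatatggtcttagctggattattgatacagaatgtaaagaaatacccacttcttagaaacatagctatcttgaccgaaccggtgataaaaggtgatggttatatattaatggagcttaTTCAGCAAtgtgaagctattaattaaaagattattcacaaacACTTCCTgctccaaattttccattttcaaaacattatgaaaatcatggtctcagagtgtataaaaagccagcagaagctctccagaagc
Ear2: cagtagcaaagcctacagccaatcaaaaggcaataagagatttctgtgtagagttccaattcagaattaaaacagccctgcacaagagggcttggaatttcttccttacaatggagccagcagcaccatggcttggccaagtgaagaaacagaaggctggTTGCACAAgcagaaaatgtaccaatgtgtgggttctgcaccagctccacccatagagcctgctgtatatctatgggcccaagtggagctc
Ear10: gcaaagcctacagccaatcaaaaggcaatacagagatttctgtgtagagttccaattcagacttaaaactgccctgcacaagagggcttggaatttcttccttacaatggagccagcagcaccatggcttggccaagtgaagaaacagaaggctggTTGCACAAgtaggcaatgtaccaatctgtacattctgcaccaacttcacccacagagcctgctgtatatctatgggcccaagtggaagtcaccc
Rnase2b: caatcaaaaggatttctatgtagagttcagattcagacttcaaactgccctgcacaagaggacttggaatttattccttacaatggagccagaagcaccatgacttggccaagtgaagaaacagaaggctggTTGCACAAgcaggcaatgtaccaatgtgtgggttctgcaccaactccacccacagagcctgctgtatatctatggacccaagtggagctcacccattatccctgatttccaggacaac
On the minus strand lay Lyz2 (chr10:117282273-117282522), Lyz1 (chr10:117292869-117293118), Chil3 (chr3:106167565-106167814), Chil4 (chr3:106219480-106219729) and Ear10 (chr14:43923597-43923846). On the plus strand lay Ear2 (chr14:44102404-44102653) and Rnase2b (chr14:51162010-51162259).

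In local alignments, the upstream stretches of Lyz2 and Lyz1 were 86.2% identical over 217 columns, and those of Chil3 and Chil4 were 90.5% identical over 222. Ear2 and Ear10 were 94.6% identical over 242 columns, Ear1 and Ear2 99.2% over 248, and Ear10 and Rnase2b 92.1% over 216. The ETS core was present once in each of Lyz2, Lyz1, Chil3 and Chil4, where the stretch as shown reads ACTTCCT, its reverse complement. On either strand it was found in 7.69% of 32851 promoter stretches of the same length. In Lyz2 and Lyz1 it began at the same distance, 100 bases before the start. It was absent from the Ear1, Ear2, Ear10 and Rnase2b stretches, which each held TTGCACAA, a match to the C/EBP form that was found in 9.56% of all stretches. Lyz1 and Chil4 held a match to that form too, while Lyz2 and Chil3 held none. TATAAA was found in Chil4 alone of these 8, and in 12.4% of all stretches. The Chil3 and Chil4 stretches are offset, with the ETS core beginning 60 bases before the start in Chil3 and 89 in Chil4. The Chil3 stretch ended within the part that corresponds to the Chil4 TATAAA, so a Chil3 copy of it could not be searched for. A match is a string of letters and not a shown binding site.

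Signals are the log2 values deposited by the authors. A detection floor of 4.65 was set, the 50th percentile of the values of both arrays together, and a gene was compared between genotypes if at least 1 array lay above it; 3 of the members and 13015 genes in all were compared. A rank is the place of a probe set's signal among those of the 22180 genes on 1 array. Probe sets differ in how strongly they bind, so a rank is not an order of transcript abundance. The arrays differed in a way that followed the level, and a gene's difference is therefore set beside the median and robust SD (scaled median absolute deviation) of the 100 features nearest to it in mean signal, called its neighbours here. Ssu72 itself read 4.998 on the Lysm-Cre Ssu72fl/fl array and 4.862 on the Lysm-Cre array, both near the floor. The signal of the targeted gene was thus not lower and did not check the label. At this level a loss of Ssu72 RNA could hardly show. Directions rest on the genotype labels alone.

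Lyz2 and Chil3 had signals among the highest of all genes on both arrays, Lyz1 was well above the floor, and Ear10 was below it on both. All differences below are log2 values, Lysm-Cre Ssu72fl/fl minus Lysm-Cre. The compared members were all lower, by 0.49 for Lyz2, 0.38 for Lyz1 and 0.12 for Chil3. Of all compared genes 51.9% were lower, but among the 29 genes with a mean signal from 9 to 10, Lyz2 and Chil3 included, 28 were lower, with a median of -0.35. None of the members differed by 2-fold, and 0.115% of compared genes did (0.0845%, or 11, lower and 0.0307%, or 4, higher). At 1.5-fold no member passed either, against 1.68% of compared genes (1.37% lower and 0.315% higher). The 2-fold split turned with the scaling, to 1 lower and 13 higher after quantile normalization and to 2 lower and 11 higher with the trend on level removed.

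**Figure D1:**
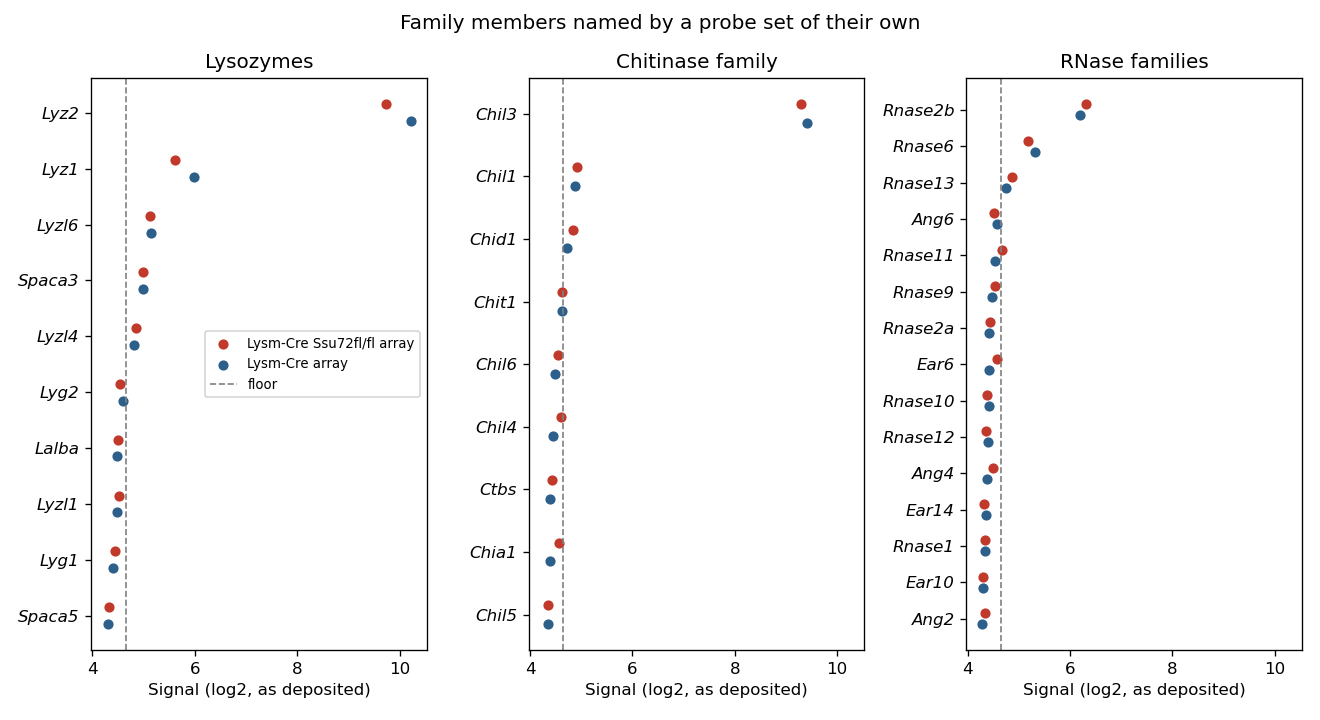
Deposited log2 signal (horizontal axis) of each lysozyme, chitinase and RNase family gene that a probe set names alone, on the Lysm-Cre Ssu72fl/fl array (red) and the Lysm-Cre array (blue); the dashed line is the floor of 4.65. Lyz2 and Chil3 lie far to the right of their relatives, Lyz1 and Rnase2b lie between, and Ear10 lies left of the floor.

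Lyz2 was the highest-ranked member. It read 9.74 on the Lysm-Cre Ssu72fl/fl array, rank 30, and 10.23 on the Lysm-Cre array, rank 25. The difference of -0.49 is a ratio of 0.713; a compressed scale would make the printed change smaller than the true one. Its neighbours, at mean signals from 9.11 to 10.9, had a median difference of -0.35 with a robust SD of 0.32. Lyz2 lay 0.14 below that median, inside the spread, and 31 of its 100 neighbours were lower still. The genes with the most similar pair of signals over the 2 arrays, by Euclidean distance, were Malat1 (distance 0.197), a nuclear long non-coding RNA, and the small nucleolar RNA genes Snord69 (0.234) and Snord47 (0.257).

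Lyz1, the neighbour of Lyz2 on its chromosome, differed in the same direction at a lower rank. It read 5.61 on the Lysm-Cre Ssu72fl/fl array, rank 1498, and 5.99 on the Lysm-Cre array, rank 968. Its difference of -0.38 lay 0.26 below the median of its neighbours (-0.12, robust SD 0.30), and 13 of the 100 were lower still. Against neighbours Lyz1 thus stood further from genes of its level than Lyz2 did, and neither left the spread. With the trend on level removed the order turned, with -0.32 for Lyz2, marginally past its neighbours' robust SD, and -0.25 for Lyz1. The fitted trend at the level of Lyz2 was -0.17, while the median of its neighbours was -0.35. Trend removal thus took off less than the shift of features at that level, and the 2 measures differ for Lyz2. The difference of Lyz2 was 0.11 lower than that of Lyz1, a gap smaller than either spread and not tested. Lyz1 and Lyz2 transcripts are close copies, and how far either probe set reads the other's transcript was not tested. Closest to Lyz1 in both signals were Slc39a1, a zinc transporter gene (distance 0.00757), Prkcd, a protein kinase C gene (0.00773), and Rbbp4, a histone-binding protein gene (0.00887).

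Chil3 was the compared member that differed least, and the one that stood highest against genes of its level. It read 9.30 on the Lysm-Cre Ssu72fl/fl array and 9.42 on the Lysm-Cre array. Although its signal was lower by 0.12, its rank was 40 on the Lysm-Cre Ssu72fl/fl array and 49 on the Lysm-Cre array, so it stood closer to the top in Lysm-Cre Ssu72fl/fl cells. Its neighbours, from 8.78 to 9.93, had a median difference of -0.41 with a robust SD of 0.28. Chil3 lay 0.29 above that median, just outside 1 robust SD, and 86 of the 100 neighbours were lower than it. The direction of Chil3 thus depended on the scaling: its difference was 0.33 after quantile normalization and 0.20 once the trend of difference on level was removed. The difference of Chil3 was 0.37 above that of Lyz2 as deposited. The genes nearest to Chil3 in both signals were the small nuclear RNA gene Rnu12 (distance 0.108), Snord104 (0.147) and B2m, the light chain of MHC class I molecules (0.177).

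Ear10 was not above the floor in either genotype. It read 4.299 on the Lysm-Cre Ssu72fl/fl array and 4.293 on the Lysm-Cre array, ranks 21995 and 21987 of 22180, and no fold is given. The deposited values differed by 0.0056, close to the median of its neighbours (0.0052, robust SD 0.024). The nearest genes in signal were Adam26a, Olfr1058 and Mir125b-2, at distances of 0.000587 to 0.00106. This says that the probe set that carries the Ear10 name gave no signal above the floor, and says nothing of Ear1 or Ear2.

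**Figure D2:**
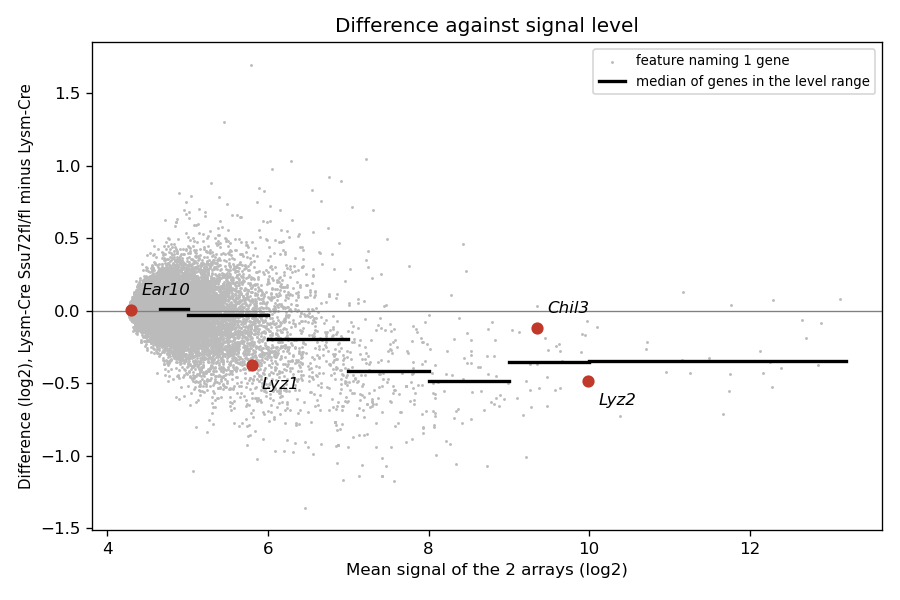
Difference between the arrays (vertical axis, log2, Lysm-Cre Ssu72fl/fl minus Lysm-Cre) against mean signal of both arrays (horizontal axis, log2) for features naming 1 gene (grey), with the median of genes in each level range (black) and the 4 named members (red). Chil3 at -0.12 lies above the median of -0.35 for genes from 9 to 10, while Lyz2 at -0.49 and Lyz1 at -0.38 lie below the medians at their levels.

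As a scale for probe error, 370 genes had a pair of compared probe sets with unequal values, and the differences that the pair gave were a median of 0.173 apart. For the 11 of them with both probe sets at a mean signal of at least 6 this median was 0.214. These gaps cover probes and not animals, and each member had a single probe set, so no such gap exists for the members.

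The other lysozyme genes had low signals and small differences. Of 10 lysozyme family genes, Lyz2 and Lyz1 included, 5 were above the floor on both arrays and 5 below it on both. Apart from the members, Lyzl6 read 5.13 on the Lysm-Cre Ssu72fl/fl array and 5.15 on the Lysm-Cre array (-0.018), and Spaca3, a sperm lysozyme-like gene, read 4.992 and 4.997 in the same order (-0.0048). Lyzl4 read 4.86 on the Lysm-Cre Ssu72fl/fl array and 4.81 on the Lysm-Cre array (0.051). Each lay within the robust SD of its neighbours (0.12 to 0.18). The goose-type lysozymes Lyg1 and Lyg2 were below the floor on both arrays.

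Among the chitinases, Chil3 was the only one of 9 named genes with a signal above 5 on either array. Chil4 (Ym2), whose upstream stretch is so close to that of Chil3, read 4.61 on the Lysm-Cre Ssu72fl/fl array and 4.44 on the Lysm-Cre array, below the floor on both. Chit1 and Chia1, which encode active chitinases, were also below it on both. The chitinase-like gene Chil1 read 4.92 on the Lysm-Cre Ssu72fl/fl array and 4.88 on the Lysm-Cre array (0.037). Chid1 read 4.83 on the Lysm-Cre Ssu72fl/fl array and 4.73 on the Lysm-Cre array (0.10). Neither left the spread of its neighbours (0.12 and 0.10).

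Rnase2b was the RNase A gene with a clear signal. It encodes an eosinophil-associated RNase and read 6.31 on the Lysm-Cre Ssu72fl/fl array and 6.19 on the Lysm-Cre array. The difference of 0.12 ran opposite to that of the compared members and to the median of its neighbours (-0.22), but stayed within their robust SD of 0.37. Its relatives Rnase2a, Ear6 and Ear14 were below the floor on both arrays, as Ear10 was. How far the Rnase2b probe set reads transcripts of other Ear genes, Ear1 and Ear2 included, was not tested. Rnase6, a ribonuclease of phagocytes, read 5.17 on the Lysm-Cre Ssu72fl/fl array and 5.31 on the Lysm-Cre array (-0.15, robust SD of neighbours 0.21).

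Of 26 RNase genes looked for, 3 were above the floor on both arrays, 1 on a single array and 11 on neither. A further 6 were named only together with other genes, and 5 were not named. Rnase13 read 4.87 on the Lysm-Cre Ssu72fl/fl array and 4.75 on the Lysm-Cre array, and Rnase11 was above the floor on the Lysm-Cre Ssu72fl/fl array only (4.67, against 4.53 on the Lysm-Cre array). The lysosomal T2 ribonucleases Rnaset2a and Rnaset2b share their features, which read 6.41 on the Lysm-Cre Ssu72fl/fl array and 7.05 on the Lysm-Cre array. Their difference was -0.64, or -0.31 with the trend on level removed. Rnh1, the cytosolic inhibitor that binds RNases of the A family, read 6.07 on the Lysm-Cre Ssu72fl/fl array and 6.48 on the Lysm-Cre array, a difference of -0.42 inside the spread of its neighbours (median -0.24, robust SD 0.44).

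**Figure D3:**
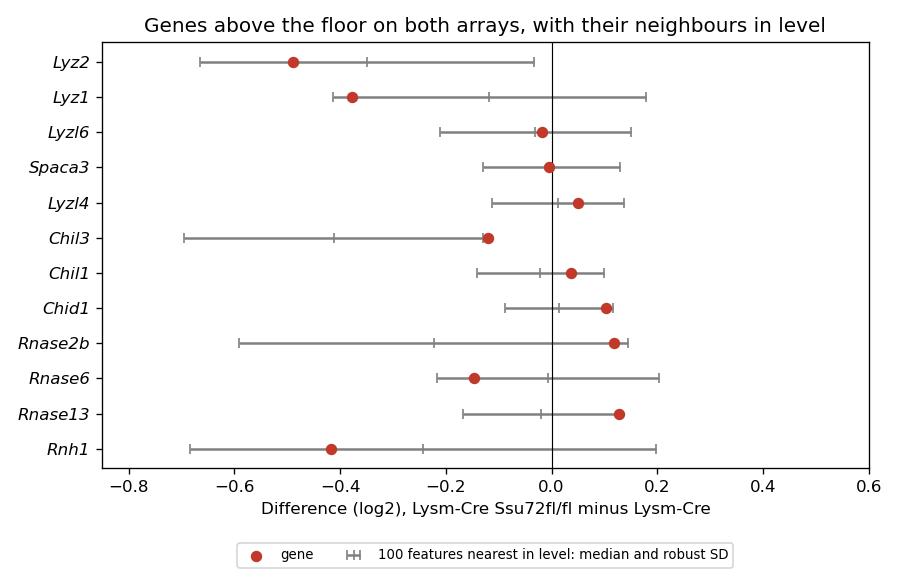
Difference (log2, Lysm-Cre Ssu72fl/fl minus Lysm-Cre) of each family gene above the floor on both arrays and of Rnh1 (red), with the median and robust SD of the 100 features nearest in level (grey). Chil3 lies just past the upper end of its interval, 0.29 above the median, Lyz1 near the lower end, and Lyz2 inside.

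Genes tied to these members by regulation or function were described by counts beside all compared genes, whose median difference was -0.0068. With the trend on level removed, 5947 of all compared genes were lower and 7068 higher (median 0.017). As deposited, the share of lower genes rose with level. It was 56.5% at mean signals from 5 to 6, 71.0% from 6 to 7 and 88.2% from 7 to 8, so a list of higher signals holds more lower genes. Of 11 compared transcription factor genes of myeloid cells, 9 were lower, with a median of -0.20; with the trend on level removed 5 were lower and 6 were higher (median 0.023). Stat5a and Cebpa were lowest: Stat5a read 5.11 on the Lysm-Cre Ssu72fl/fl array and 5.53 on the Lysm-Cre array (-0.41), and Cebpa, a transcription factor gene of granulocytes and macrophages, read 5.82 and 6.29 in the same order (-0.47). Spi1, the gene of PU.1, read 6.10 on the Lysm-Cre Ssu72fl/fl array and 6.50 on the Lysm-Cre array (-0.40, neighbours -0.27 with a robust SD of 0.40). Cebpe (0.11) and Stat5b (0.021) were higher.

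Of 17 compared genes of the interleukin 4 and 13 response other than Chil3, 10 were lower and 7 were higher; the median of -0.12 became 0.013 with the trend on level removed. The kinase gene Jak1 (-0.59) and the chemokine gene Ccl22 (-0.51) were lowest, and the chemokine gene Ccl24 (0.40) and the feedback inhibitor gene Socs1 (0.15) highest. The receptor chain gene Il4ra read 5.09 on the Lysm-Cre Ssu72fl/fl array and 5.21 on the Lysm-Cre array, and Stat6, its transcription factor, read 5.73 and 5.85 in the same order. Arg1 and Retnla, other products of this response, read 4.84 and 4.89 on the Lysm-Cre Ssu72fl/fl array and 4.82 and 5.06 on the Lysm-Cre array. Of 10 compared antimicrobial genes other than the lysozymes, 8 were lower, with a median of -0.14 (-0.042 with the trend removed), from the NADPH oxidase gene Cybb (-0.61) and the perforin-like gene Mpeg1 (-0.49) to Lcn2 (0.11) and Ltf (0.020), whose products bind iron carriers and iron.

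The cell type label was looked at through marker genes. All 15 alveolar macrophage markers were above the floor on at least 1 array; 14 were lower and 1 was higher (median -0.32). With the trend on level removed 10 were lower and 5 were higher (median -0.096). Their mean signal was 6.61 on the Lysm-Cre Ssu72fl/fl array and 6.92 on the Lysm-Cre array. Olr1 (-0.60) and Atp6v0d2 (-0.55) were lowest, and Fabp4 (0.19) and Siglecf (-0.088) at the other end. In bulk samples, fewer cells of a type and less RNA per cell cannot be told apart. Of the defining eosinophil genes, which bear on the RNases, Ccr3, Il5ra and Prg3 were below the floor on both arrays. Epx read 4.93 on the Lysm-Cre Ssu72fl/fl array and 4.76 on the Lysm-Cre array, and Prg2 read 4.75 and 4.66 in the same order. Over the whole list 6 of 10 were compared, 4 higher, led by Epx and Cebpe (0.11), and 2 lower, Siglecf and Adgre1 (-0.50), both of which alveolar macrophages express too; signals ran from 4.34 to 5.14 on the Lysm-Cre Ssu72fl/fl array and from 4.33 to 5.64 on the Lysm-Cre array.

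Markers of alveolar type 2 cells, which can supply lysozyme transcripts, were above the floor and mostly lower as deposited. Some lay close to it, such as Lamp3 (4.76 on the Lysm-Cre Ssu72fl/fl array and 4.70 on the Lysm-Cre array) and Abca3 (4.74 and 4.94). All 12 besides Lyz1 and Lyz2 were compared, 10 of them lower, with a median of -0.17. With the trend on level removed 9 were lower and 3 were higher (median -0.065). Their mean signal was 5.44 on the Lysm-Cre Ssu72fl/fl array and 5.60 on the Lysm-Cre array. The surfactant gene Sftpc read 8.35 on the Lysm-Cre Ssu72fl/fl array and 8.71 on the Lysm-Cre array (-0.36). With the trend removed the 12 ran from -0.25 (Hc) to 0.17 (Etv5), with Sftpc at 0.083, beside -0.32 for Lyz2 and -0.25 for Lyz1. As deposited, Cxcl15, Sftpb and Sftpa1 were lower by similar amounts (-0.31 to -0.32), while Etv5 (0.15) and Lamp3 (0.059) were higher. Of 13 compared markers of monocytes and interstitial macrophages, 11 were lower (median -0.36, or -0.27 with the trend removed). H2-Ab1 (-1.07) and H2-Aa (-0.86) were lowest, and Folr2 (0.12) and Vcan (0.057) highest. The part of either cell type in the lower Lyz2 and Lyz1 signals was not tested. Neutrophil markers, of cells that hold lysozyme and the Ym1 protein, were low on both arrays, at most 5.04 on the Lysm-Cre Ssu72fl/fl array and 5.18 on the Lysm-Cre array; 6 of 9 compared were lower and 4 of 13 were below the floor on both. From Csf3r (-0.14) and S100a8 (-0.10) to Mmp9 (0.12) and Ltf (0.020), their median was -0.037.

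Of the remaining lists, club, ciliated and type 1 cell markers had a median of 0.0011, with 4 lower and 5 higher, from Tppp3 (-0.47) and Ager (-0.31) to Scgb3a1 (0.16) and Pdpn (0.11). Lymphocyte markers had a median of 0.094, with 3 lower and 4 higher, from Ighm (-0.58) and Gzma (a bound of -0.092) to Lat (0.68) and Cd3d (a bound of 0.24). With the trend on level removed, the medians were 0.069 for the club, ciliated and type 1 list and 0.14 for the lymphocyte list. The secretoglobin gene Scgb1a1 of club cells read 7.99 on the Lysm-Cre Ssu72fl/fl array and 8.02 on the Lysm-Cre array (-0.033). Its neighbours had a median of -0.51 with a robust SD of 0.27, so it stood above genes of its level. With the trend removed its difference was 0.42.

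**Figure D4:**
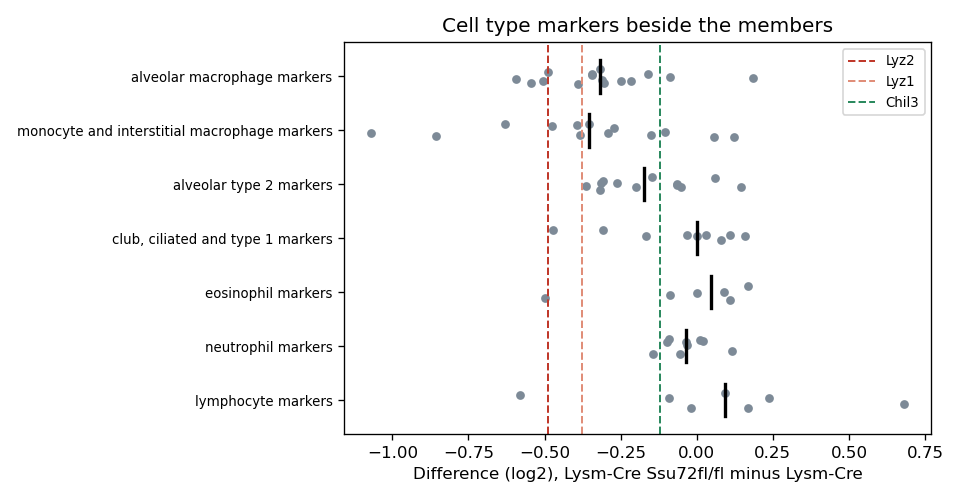
Differences (log2, Lysm-Cre Ssu72fl/fl minus Lysm-Cre) of the compared markers of each cell type (grey points; black bar, median), with signals under the floor raised to the floor and Lyz1 and Lyz2 left out, and the differences of Lyz2, Lyz1 and Chil3 as dashed lines. The medians of the macrophage lists lie at -0.32 and -0.36, near Lyz1, that of the type 2 list at -0.17, and those of the other lists near 0.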

How the data were processed

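Total RNA of sorted cells was labelled from 6 ug and hybridised to Affymetrix arrays, per the labels' protocols. The authors deposited 1 log2 expression value per feature and array; that the scale is log2 was read from the range of values, 4.23 to 13.5. MAS5 is named in the submitters' processing notes without its role; the sources used here do not give background correction, normalization, offset, centring or genome build. Column medians were 4.66 (Lysm-Cre Ssu72fl/fl) and 4.65 (Lysm-Cre). Having 2 arrays limits the precision.

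Of 33793 features, 23521 carried 1 gene symbol in the platform annotation, 1814 several and 8458 none. Of the first, 23328 were matched by Entrez identifier to RefSeq genes of GRCm38.p6 and took their symbols. Each gene took its feature with the highest mean; each of the 4 named members had 1 feature. Signals under the floor were raised to the floor. The trend was removed by lowess (span 0.3) on medians of level bins 0.25 wide with at least 10 features. The procedure was tested on simulated data built from this same trend, with less noise than around the compared members. That test therefore could not judge how well the trend follows the real values. Promoters came from RefSeq (6 of 6 members matched) and were aligned locally with Biopython 1.88; alignments of at least 100 columns are given. Python 3.11.15, pandas 2.3.3 and statsmodels 0.14.6 were used.

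The members and gene lists were chosen with earlier results of these data known. Besides the members, the text names relatives above the floor, the 3 genes nearest to each member in signal, the 2 highest and lowest of each list and Ssu72; relatives below the floor and further genes named for their function were added after the values were seen. The rule also took the 10 genes with the highest signal, which are not described. Alternatives were other scalings, floors, features and a threshold of 1.5-fold.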

Additional observations from a re-analysis of the deposited data

How the results depend on the processing

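The differences of Lyz2 and Lyz1 stayed below 0 in all 7 alternatives. They ran from -0.50 to -0.32 for Lyz2 and from -0.39 to -0.25 for Lyz1. The alternatives of scaling were median centring, quantile normalization and removal of the trend on level. The others were the mean of a gene's features, features naming several genes, no floor and the floor at the 75th percentile. These others could not change a member's value, because each had a single feature naming it alone and its difference was taken without the floor. Median centring moved every gene by the same amount, so quantile normalization and trend removal were the alternatives that could differ between genes. Chil3 ranged from -0.13 to 0.33 and was reversed by quantile normalization (0.33) and by removal of the trend (0.20). The cause was not tested. No compared member passed 2-fold, or 1.5-fold, in any alternative run. The genes past 2-fold, 11 lower and 4 higher, became 1 lower and 13 higher with quantile normalization, 2 lower and 11 higher with the trend removed, and 36 lower and 42 in all with features naming several genes, where a feature counts once for each gene it names. At 1.5-fold they were 178 lower and 41 higher, 219 in all. With the 100 nearest genes in place of features, an alternative chosen after seeing the data, Lyz2 lay 0.055 and Lyz1 0.25 below the median of its neighbours, and Chil3 0.32 above. No paired analysis was possible because each genotype had 1 array.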
